A study of Mus musculus with 6 samples.

Results

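The genes described here encode the machinery that brings proteins into mitochondria. They were chosen by gene symbol: the translocases of the outer membrane (Tomm genes) and inner membrane (Timm genes), Samm50 and the metaxins Mtx1, Mtx2 and Mtx3, the motor genes Pam16, Dnajc19, Grpel1 and Grpel2, the processing peptidase genes Pmpca and Pmpcb, and Chchd4. The choice was made with earlier results of these data known. A sum of at least 10 counts over all libraries was required. This gave 36 genes of the 35976 listed, and 35 of the 36 were among the 14542 genes that could be tested. Timm8a2 was not, with 2, 2 and 3 counts in WT mice and 3, 0 and 4 counts in sST2-KO mice. One of the 36, Tomm6os, is a non-coding transcript on the strand opposite Tomm6 and entered by its name only. RNA-seq was performed on brown adipose tissue (BAT) from male mice, in 3 WT and 3 sST2-KO libraries. The mice were littermates of a C57BL/6J background and were 10 weeks old. In sST2-KO mice the intron of Il1rl1 that carries the stop codon of the soluble receptor sST2 had been deleted in the germ line, so every cell type of the mouse carries the change. All mice, controls included, had the nerves that supply BAT cut on both sides and were exposed to 10 °C for 8 h. No sham-operated mice and no mice kept warm are among these samples, so the comparison is between genotypes in denervated, cold-exposed BAT only.

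Nearly all mitochondrial proteins are made in the cytosol and must cross 1 or both mitochondrial membranes. The TOM complex is the common entry gate, the SAM complex inserts beta-barrel proteins into the outer membrane, and small TIM chaperones carry hydrophobic proteins through the space between the membranes, where the oxidoreductase Chchd4 also traps proteins by disulfide bonds. TIM22 inserts carriers into the inner membrane, while TIM23 and its motor pull proteins with a presequence into the matrix, where a peptidase removes the presequence. Brown adipocytes are packed with mitochondria, and the uncoupling protein UCP1 of their inner membrane belongs to the carrier family.

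The libraries held between 8159442 and 12874809 counts. Levels are given as normalized CPM, counts relative to the library size after scaling by edgeR's TMM method. Il1rl1 itself had 19, 19 and 6 counts in WT mice and 55, 69 and 142 in sST2-KO mice. These counts add up the soluble and the membrane-bound form, so they do not check the genotype. Markers of brown adipocytes were detected in every library, but their summed level was 6866 to 13103 CPM in WT mice and 320.2 to 1667 CPM in sST2-KO mice. Ucp1 alone had 5229 to 10522 CPM and 153.2 to 1042 CPM of these sums. Of the 10 markers, 7 were lower at an adjusted p under 0.05 by edgeR, against 9.10% of all genes tested. Ppara, Prdm16 and Zic1 did not reach this, and Zic1 had a log2 fold change of 0.68. The sum of 11 general adipocyte markers was 29021 to 34772 CPM and 9499 to 17287 CPM, respectively. Of these 11, 2 were lower at an adjusted p under 0.05 by edgeR. Retn had a log2 fold change of -0.068, and Lep was higher (3.27, adjusted p = 0.130 by edgeR). Several other tissues or cell types moved with the genotype. All 18 skeletal muscle markers had every sST2-KO value above every WT value (summed level 70.8 to 1543 CPM in WT and 4270 to 18218 CPM in sST2-KO), and 5 of them, Myh4, Ckm, Pvalb, Myoz1 and Myh2, were at 0 in at least 1 WT library. All 8 T cell markers were likewise higher without overlap (18.3 to 20.3 CPM and 141.2 to 167.1 CPM), and 5 of 12 macrophage markers were. Of all 14542 genes tested, 3173 were higher without overlap. At an adjusted p under 0.05 by edgeR, 4 of the 18 skeletal muscle, 7 of the 8 T cell and 3 of the 12 macrophage markers were higher. This compares with 10.5% of all genes tested. sST2-KO replicate 3 stood apart with a macrophage sum of 6974 CPM against 1680 and 1763 CPM in the other sST2-KO libraries. It also had the highest skeletal muscle sum (18218 CPM) and the lowest adipocyte sum (9499 CPM). WT replicate 2 had a liver gene sum of 6766 CPM against 219.6 and 271.0 CPM in the other WT libraries. WT replicate 1 had a skeletal muscle sum of 1543 CPM, against 81.0 CPM in WT replicate 2 and 70.8 CPM in WT replicate 3. The share of counts from the 13 genes of the mitochondrial genome was 6.80% in sST2-KO replicate 3 and 11.8% to 16.6% in the other 5 libraries. The part of these differences in the results below was not tested. In bulk tissue, fewer brown adipocytes and less of a transcript in each of them cannot be told apart.

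Import genes were lower as a group in sST2-KO BAT, although to very unequal degrees. Of the 35 genes tested, 21 were lower at an adjusted p under 0.05 by edgeR's quasi-likelihood test, which is 60.0%, against 9.10% of all genes tested. Of the 35, 19 (54.3%) were called and had a fitted fall of more than 2-fold, against 7.10% of all genes. The highest sST2-KO level was below the lowest WT level in 32 of the 35 genes, against 19.7% of all genes. One gene, Tomm34, was higher at an adjusted p under 0.05, against 10.5% of all genes, and 13 genes were not called. The median log2 fold change was -1.06 (quartiles -1.43 and -0.68), while that of all genes tested was 0.034. Import genes took 0.237%, 0.267% and 0.306% of all counts in WT, against 0.164%, 0.171% and 0.158% in sST2-KO. These raw shares, which use no scaling factor, did not overlap between the groups.

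Within the WT group the libraries were graded. WT replicate 3 had the highest level of 32 of the 35 genes and WT replicate 1 the lowest level of 27, so the spread of the WT libraries was largely shared among the genes. Within the sST2-KO group, replicate 3 was lowest for 19 genes, replicate 1 for 11 and replicate 2 for 5. The number of calls in the whole table depended on single WT libraries. Without WT replicate 3 edgeR called 22 of 15085 genes lower (0.146%) and 0 of the 35 import genes, of which 24 were lower at an unadjusted p under 0.05, with a median log2 fold change of -0.86. Without WT replicate 2, 3.25% of all genes and 11 import genes were called lower. The calls then lost were those of Grpel1, Pmpcb, Samm50, Timm17a, Timm8a1, Tomm20l, Tomm40, Tomm40l, Tomm7 and Tomm70a. The genes were all measured in the same 6 libraries and are not replicates of the comparison.

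**Figure D1:**
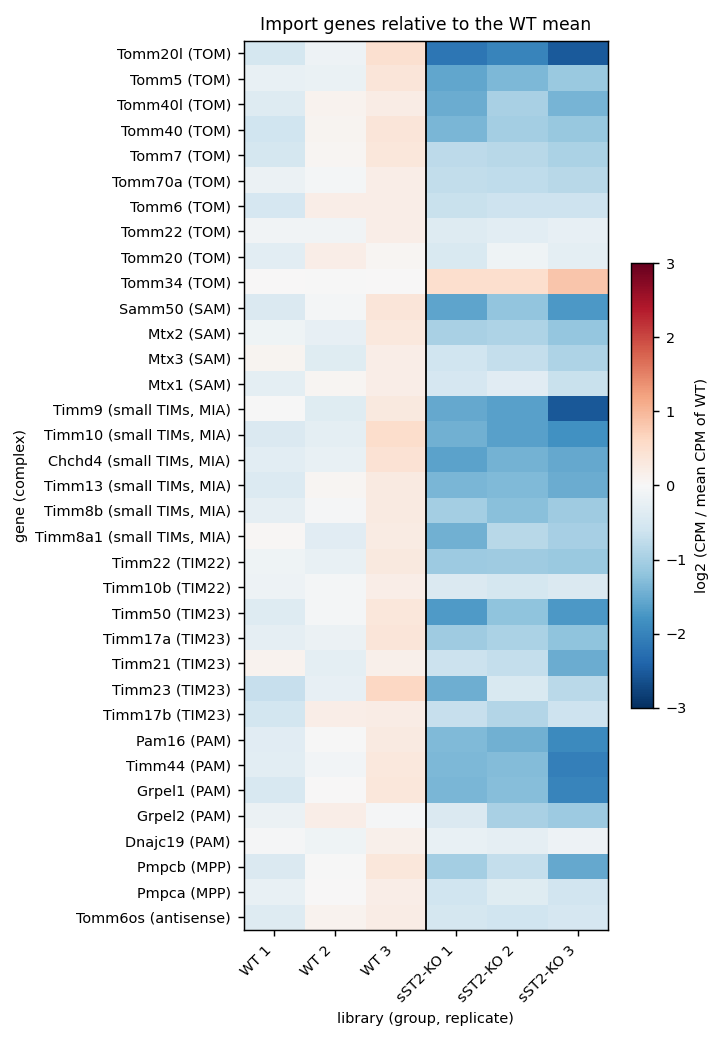
Level of each tested import gene (rows, grouped by complex) in each of the 6 libraries (columns), as the log2 ratio of its normalized CPM to the mean CPM of WT mice. Blue is below and red above the WT mean; in 32 of 35 rows the sST2-KO columns all lie below the WT columns, and Tomm34 is the row that is higher in sST2-KO.

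The receptors of the outer membrane differed from each other. Tomm20, which reads the presequence of incoming proteins, had 107.3, 154.1 and 139.6 CPM in WT and 97.8, 122.1 and 108.2 CPM in sST2-KO, in the order of the replicate numbers here and below. The groups overlapped, and the log2 fold change of -0.29 was not called (95% interval -0.77 to 0.19, adjusted p = 0.349). Tomm22, the central receptor, had 68.9, 69.3 and 85.3 CPM in WT and 57.1, 59.7 and 62.6 CPM in sST2-KO. Its groups did not overlap, but its log2 fold change of -0.32 (95% interval -0.71 to 0.073, adjusted p = 0.215) was not called either. Tomm70a, the receptor that takes up carrier proteins with their chaperones, fell from 133.8 ± 18.6 CPM to 78.1 ± 2.13 CPM (SD, n = 3 each). Its values were 117.8, 129.3 and 154.2 CPM in WT and 79.8, 78.9 and 75.7 CPM in sST2-KO, so the groups did not overlap. The log2 fold change was -0.78 ± 0.18 (standard error), with an adjusted p of 0.0266 by edgeR. This call was lost when any library other than WT replicate 1 was left out, with an adjusted p of at most 0.109, and with scaling by total counts (adjusted p = 0.0648).

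The pore of the outer membrane was lower. Tomm40, which forms the channel, had 64.1, 102.4 and 125.6 CPM in WT and 37.4, 48.2 and 44.2 CPM in sST2-KO, so that sST2-KO mice had 44.4% of the WT level (log2 fold change -1.17, standard error 0.27, adjusted p = 0.0261). The call was lost without WT replicate 2 or 3 and without sST2-KO replicate 1 or 3, with an adjusted p of at most 0.0989. Its paralog Tomm40l had 64.4, 90.8 and 98.6 CPM in WT and 30.3, 43.0 and 32.1 CPM in sST2-KO and fell to 41.5% (log2 fold change -1.27, standard error 0.23, adjusted p = 0.0166), but 3501 bases of its exons, 61.0% of their length, lie opposite exons of Nr1i3, and others lie opposite Apoa2, a gene of the liver list. The use of strand in the counting is not given in the sources used here, so reads of such opposite genes cannot be told apart. Of the small subunits that stabilize the complex, Tomm5 had 74.6, 76.0 and 111.5 CPM in WT and 29.6, 34.1 and 40.1 CPM in sST2-KO and fell to 39.6% (log2 fold change -1.34, standard error 0.23, adjusted p = 0.0150). Tomm7 had 55.3% of the WT level (log2 fold change -0.86, adjusted p = 0.0453). Its call was lost when any library other than WT replicate 1 was left out, with an adjusted p of at most 0.161, and with scaling by total counts (adjusted p = 0.0843). Tomm6 had 64.4% of the WT level without a call (adjusted p = 0.0788), and its exons lie opposite those of Usp49 over 22.9% of their length. Tomm6os, whose exons partly lie opposite those of Tomm6 and, over 41.5% of their length, of Prickle4, had 68.8% (adjusted p = 0.0980).

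The most reduced member was Tomm20l, a receptor-like paralog at a low level. It had 21, 27 and 32 counts in WT and 9, 6 and 5 counts in sST2-KO, and fell to 22.1% of the WT level (log2 fold change -2.18, standard error 0.42, adjusted p = 0.0181). It lies on the plus strand at chr12:71158177-71170001 (GRCm39), and 322 of its exon bases, 31.4% of their length, lie opposite those of Timm9, which lies on the minus strand at chr12:71168589-71183475. Timm9, the second most reduced member, had 546, 427 and 515 counts in WT and 254, 140 and 89 in sST2-KO, and reads of the shared stretch cannot be told apart.

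Tomm34 was the exception of the whole list. It encodes a cytosolic cochaperone that binds precursor proteins together with HSP70 and HSP90, and is not a subunit of the TOM pore. Its level was 28.7, 28.6 and 28.8 CPM in WT and 40.7, 40.7 and 51.4 CPM in sST2-KO. It rose from 28.7 ± 0.149 CPM to 44.3 ± 6.20 CPM (SD, n = 3 each), or by 0.62 ± 0.17 (standard error) on the log2 scale (adjusted p = 0.0406). All 3 sST2-KO values lay above all 3 WT values. Leaving out any 1 library gave an adjusted p of 0.0530 to 0.141, so the call needed all 6 libraries, while the log2 fold change stayed between 0.50 and 0.68.

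The SAM complex showed a fall of its core subunit. Samm50, the insertase for beta-barrel proteins, had 243.1, 314.9 and 422.4 CPM in WT and 109.3, 144.9 and 98.5 CPM in sST2-KO. It was the member with the highest CPM in both groups and fell to 36.0% of the WT level (log2 fold change -1.48, standard error 0.28, adjusted p = 0.0168). Of the metaxins, which sit beside Samm50, Mtx2 had 75.7, 69.9 and 102.3 CPM in WT and 42.4, 43.5 and 36.8 CPM in sST2-KO and fell to 49.6% (log2 fold change -1.01, standard error 0.20, adjusted p = 0.0186). Mtx1, the least changed gene of the complex, had 34.2, 44.0 and 48.1 CPM in WT and 29.9, 33.5 and 26.5 CPM in sST2-KO, without overlap and without a call (log2 fold change -0.49, standard error 0.19, adjusted p = 0.114). Mtx3 had 26.9, 19.8 and 29.2 CPM in WT and 16.6, 15.4 and 13.3 CPM in sST2-KO, likewise without overlap or call (log2 fold change -0.74, standard error 0.22, adjusted p = 0.0528).

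Of the small TIM genes and Chchd4, which act in the space between the membranes, 6 were tested apart from Timm10b, which is bound to TIM22 and described with it. All 6 were called lower with a fitted fall of more than 2-fold, to between 27.9% and 47.6% of the WT level. Their median log2 fold change was -1.45. Of all genes tested, 7.10% were called lower with such a fall, and the fold itself was not tested. All 6 calls were lost without WT replicate 3. Timm10b was not called. Timm9 and Timm10, whose products form the hexamer that shields carriers on their way to TIM22, had the largest falls after that of Tomm20l. Timm9 had 50.9, 40.2 and 63.5 CPM in WT and 17.7, 16.6 and 8.79 CPM in sST2-KO, a fall to 27.9% of the WT level (log2 fold change -1.84, standard error 0.31, adjusted p = 0.0150). Timm10 had 41.2, 45.1 and 80.0 CPM in WT and 20.4, 18.0 and 15.7 CPM in sST2-KO, a fall to 32.6% (log2 fold change -1.62, standard error 0.29, adjusted p = 0.0156). The sST2-KO values of both genes were lowest in replicate 3. Chchd4, the oxidoreductase of the disulfide relay, had 37.7, 40.3 and 63.7 CPM in WT and 15.5, 17.8 and 16.3 CPM in sST2-KO, which is 35.0% of the WT level (log2 fold change -1.51, standard error 0.24, adjusted p = 0.0143). The second chaperone hexamer is built of the products of Timm8a1 or its relatives and Timm13. Timm13 had 90.0, 123.8 and 144.7 CPM in WT and 46.1, 47.7 and 42.9 CPM in sST2-KO, a fall to 38.1% (log2 fold change -1.39, standard error 0.22, adjusted p = 0.0136). Timm8b had 45.5, 53.2 and 65.7 CPM in WT and 27.1, 23.02 and 26.1 CPM in sST2-KO, a fall to 46.4% (log2 fold change -1.11, standard error 0.19, adjusted p = 0.0154). Timm8a1 had 23.3, 18.1 and 27.0 CPM in WT and 8.43, 12.8 and 11.4 CPM in sST2-KO, or 47.6% (log2 fold change -1.07, standard error 0.25, adjusted p = 0.0287). The call of Timm8a1 was lost when any library other than sST2-KO replicate 2 was left out, with an adjusted p of at most 0.114, and with scaling by total counts (adjusted p = 0.0563). Exons of Chchd4 lie opposite those of Tmem43 over 26.0% of their length, and those of Timm13 opposite Tmprss9 over 14.9%.

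**Figure D2:**
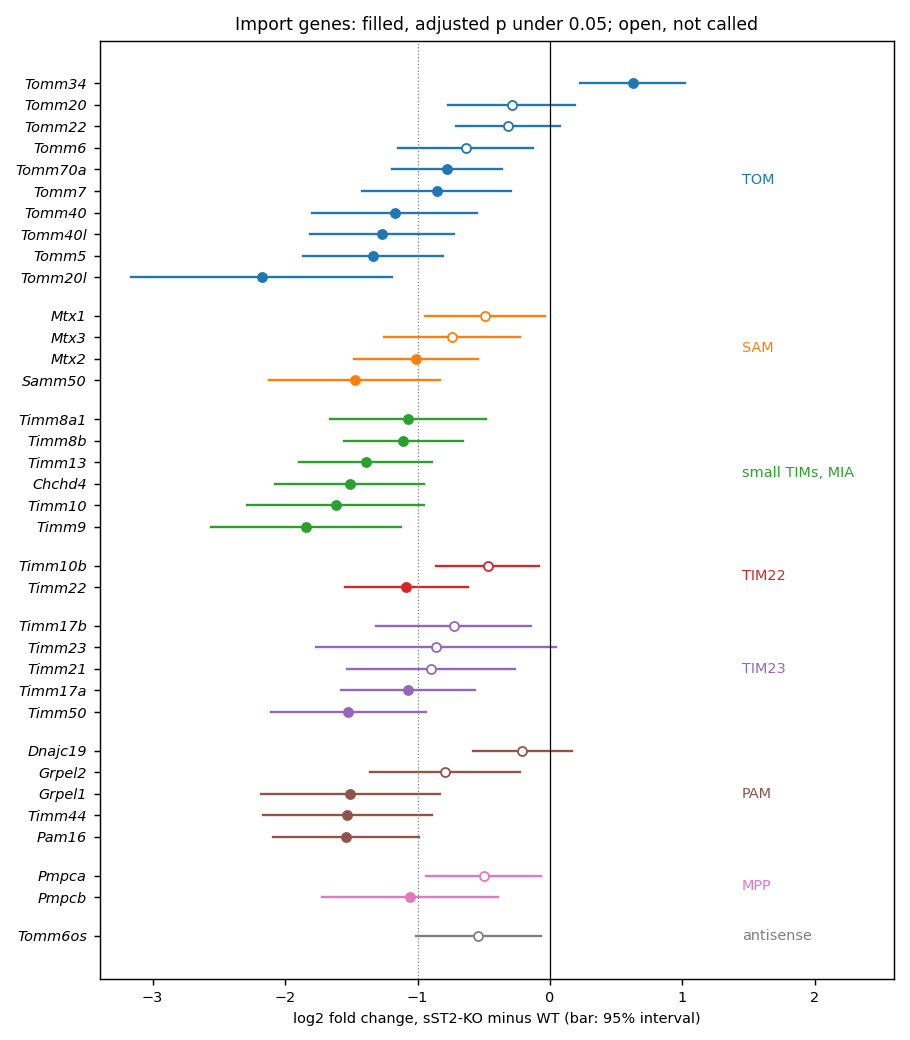
Log2 fold change of each tested import gene, sST2-KO minus WT, with its 95% interval, grouped by complex (TOM, SAM, small TIMs with Chchd4, TIM22, TIM23, the motor PAM and the peptidase MPP). Filled points have an adjusted p under 0.05 and open points do not. The dotted line marks a 2-fold fall, past which lie the points, but not all intervals, of the 6 genes grouped as small TIMs with Chchd4. The points of Dnajc19, Tomm20 and Tomm22 do not lie past it.

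In the inner membrane, Timm22, the channel of the carrier translocase, had 27.3 to 38.6 CPM in WT and 14.7 to 15.1 CPM in sST2-KO. It fell to 47.2% of the WT level (log2 fold change -1.08, standard error 0.20, adjusted p = 0.0167), and its exons lie opposite those of Abr over 32.1% of their length. Timm10b, a small TIM bound to this complex, had 39.8, 42.7 and 50.9 CPM in WT and 32.8, 30.7 and 32.8 CPM in sST2-KO, or 72.2% of the WT level, without a call (log2 fold change -0.47, standard error 0.17, adjusted p = 0.0854). A further subunit of TIM22, Timm29, is listed in the table under its older name 1810026J23Rik, which the choice by symbol does not cover. It had 563, 613 and 443 counts in WT and 636, 361 and 393 counts in sST2-KO (log2 fold change -0.39, adjusted p = 0.114).

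All 5 genes of TIM23, the gate for proteins with a presequence, had a fitted level below that of WT. Of them, 2 (40%) were called lower, against 9.10% of all genes tested. Timm50, the receptor that meets presequences as they leave the outer membrane, had 78.3, 97.4 and 129.1 CPM in WT and 31.4, 44.1 and 30.7 CPM in sST2-KO. This is 34.8% of the WT level (log2 fold change -1.52, standard error 0.25, adjusted p = 0.0150). Timm17a, a subunit of the channel, had 96.1, 102.8 and 147.7 CPM in WT and 55.5, 59.8 and 49.7 CPM in sST2-KO (log2 fold change -1.07, standard error 0.22, adjusted p = 0.0195). Its call was lost without WT replicate 2 or 3 or sST2-KO replicate 3 (adjusted p at most 0.0753). Its X-linked paralog Timm17b had 18.5, 31.0 and 31.4 CPM in WT and 16.7, 14.6 and 17.6 CPM in sST2-KO (log2 fold change -0.73, standard error 0.25, adjusted p = 0.0792). Timm23 itself varied widely within both groups, with 86.1, 118.6 and 215.8 CPM in WT and 50.8, 101.3 and 79.5 CPM in sST2-KO. The groups overlapped, and its log2 fold change of -0.86 had a 95% interval from -1.77 to 0.045 (adjusted p = 0.155). Exons of Timm23 lie opposite those of Parg over 13.6% of their length. Timm21, a regulatory subunit, had 53.6% of the WT level (adjusted p = 0.0556).

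The motor that pulls proteins into the matrix held genes that were called lower and genes that were not called. Timm44, which anchors the HSP70 of the matrix to the channel, had 142.3, 168.1 and 223.3 CPM in WT and 69.6, 71.9 and 43.3 CPM in sST2-KO (34.6% of WT, log2 fold change -1.53, standard error 0.27, adjusted p = 0.0161). Pam16, a partner of the J proteins that holds back their activity, had 493, 611 and 572 counts in WT and 330, 180 and 156 counts in sST2-KO (34.4% of WT, log2 fold change -1.54, standard error 0.24, adjusted p = 0.0136). Grpel1, the nucleotide exchange factor of that HSP70, had 163.7, 229.0 and 290.1 CPM in WT and 87.9, 94.5 and 57.9 CPM in sST2-KO (35.2% of WT, log2 fold change -1.51, standard error 0.29, adjusted p = 0.0177). These 3 genes fell to nearly the same share of WT and each was lowest in sST2-KO replicate 3. Exons of Pam16 lie opposite those of Glis2 over 56.7% of their length and exons of Grpel1 opposite Tada2b over 23.1%. Dnajc19, the J protein that stimulates the HSP70, had 43.7, 40.9 and 49.9 CPM in WT and 38.5, 37.1 and 40.6 CPM in sST2-KO. Its log2 fold change of -0.21 (95% interval -0.58 to 0.16, adjusted p = 0.384) was the smallest of all members, and became 0.060 (adjusted p = 0.814) when libraries were scaled by total counts. Grpel2, the paralog of Grpel1, had 21.8, 28.4 and 23.9 CPM in WT and 18.4, 12.6 and 11.7 CPM in sST2-KO, without a call (log2 fold change -0.79, standard error 0.24, adjusted p = 0.0575).

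The matrix processing peptidase is a dimer of a catalytic beta subunit, Pmpcb, and a substrate-binding alpha subunit, Pmpca. Pmpcb had 118.6, 159.1 and 199.8 CPM in WT and 78.4, 96.5 and 54.6 CPM in sST2-KO and fell to 48.1% of the WT level (log2 fold change -1.06, standard error 0.28, adjusted p = 0.0398). The call was lost without WT replicate 2 or 3 or sST2-KO replicate 1 or 3, with an adjusted p of at most 0.144, and with scaling by total counts (adjusted p = 0.0528). Pmpca had 97.4, 115.6 and 130.4 CPM in WT and 76.2, 89.1 and 77.2 CPM in sST2-KO. This is 70.6% of the WT level, with no overlap between the groups and no call (log2 fold change -0.50, 95% interval -0.93 to -0.070, adjusted p = 0.0953). Exons of Pmpca lie opposite those of Inpp5e over 20.1% of their length.

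**Figure D3:**
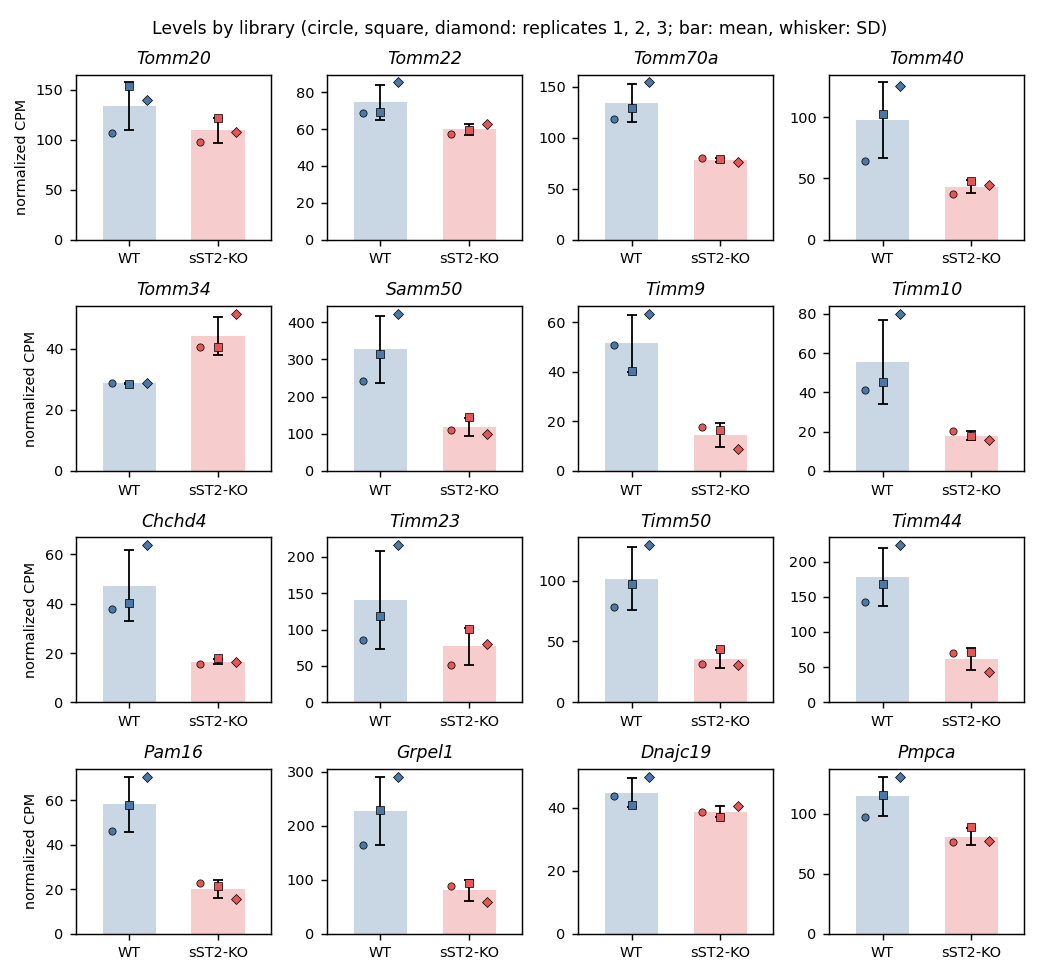
Normalized CPM of 16 import genes in each library (circle, square and diamond for replicates 1, 2 and 3), with the mean (bar, from 0) and SD (whisker) of the 3 WT and 3 sST2-KO libraries. Samm50, Timm9, Timm10, Chchd4, Timm50, Timm44, Pam16 and Grpel1 are at 27.9% to 36.0% of the WT level by the fitted fold change, Tomm20 and Dnajc19 at 81.8% and 86.5%, and Tomm34 is higher in sST2-KO.

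Promoter sequences from RefSeq, on build GRCm38.p6 and reaching from 250 bases before to 50 bases after the start, were matched by symbol for 32 of the 36 genes and searched on both strands for short motifs of factors known from mitochondrial or cAMP-driven genes. The ETS motif CCGGAAG, read by the factor GABP, was found for 14 of 32 genes (43.8%), against 9.93% of all genes with a promoter and 18.5% of those tested. Its holders included genes that fell, such as Grpel1, Timm10, Timm8b, Mtx2, Pmpcb and Tomm70a, genes that were not called, such as Tomm22, Mtx1 and Pmpca, and Tomm34, which rose. The YY1 motif AAGATGG was found for 5 genes (15.6%, against 7.28% of all and 8.09% of tested genes), the ERR motif AAGGTCA for Timm23, Timm44 and Timm8b (9.38%, against 5.38% and 4.21%), the NRF1 motif GCGCATGC for Grpel1 and Timm13 (6.25%, against 3.05% and 5.47%) and the cAMP response motif TGACGTCA for 0 genes (against 2.03% and 3.46%). A match is a run of letters and not a shown binding site. Shown here are the promoters of 2 motor genes that fell and of the gene that rose, 5′ to 3′ on the strand of the gene, with motif matches in capitals. Grpel1 (chr5:36464935-36465234, plus strand) holds an ETS match that begins at position -204 from the start and an NRF1 match at -36. Timm44 (chr8:4275856-4276155, minus strand) holds an ERR match at -5. Of the 2 starts listed for Tomm34, the one shown (chr2:164071053-164071352, minus strand) holds ETS matches at -106 and -9. No match overlaps another in these 3 sequences.
Grpel1: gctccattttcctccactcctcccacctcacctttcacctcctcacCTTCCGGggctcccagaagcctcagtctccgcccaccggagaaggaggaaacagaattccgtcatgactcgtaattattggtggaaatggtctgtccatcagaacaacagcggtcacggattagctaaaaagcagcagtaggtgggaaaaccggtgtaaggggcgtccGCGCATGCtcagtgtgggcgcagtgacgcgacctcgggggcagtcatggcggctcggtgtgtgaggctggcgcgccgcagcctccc
Timm44: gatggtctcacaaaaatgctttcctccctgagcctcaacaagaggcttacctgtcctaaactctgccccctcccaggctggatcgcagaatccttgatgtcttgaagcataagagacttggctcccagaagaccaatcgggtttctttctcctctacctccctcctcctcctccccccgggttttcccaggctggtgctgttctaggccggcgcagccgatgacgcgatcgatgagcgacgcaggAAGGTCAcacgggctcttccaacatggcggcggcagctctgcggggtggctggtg
Tomm34: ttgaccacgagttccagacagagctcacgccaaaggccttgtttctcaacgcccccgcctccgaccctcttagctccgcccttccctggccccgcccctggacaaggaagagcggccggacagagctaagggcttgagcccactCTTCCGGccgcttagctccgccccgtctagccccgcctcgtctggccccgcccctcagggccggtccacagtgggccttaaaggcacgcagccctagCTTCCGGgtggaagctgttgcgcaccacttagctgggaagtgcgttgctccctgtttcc

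Levels of different genes were compared per kilobase of the canonical transcript of the GENCODE annotation. In WT mice the highest were Timm23 with 119.5 CPM per kilobase (73.4 to 183.9 over the 3 libraries), Tomm5 with 104.6 (89.4 to 133.5) and Pmpcb with 98.4 (73.3 to 123.5). Timm44 with 97.7 and Pam16 with 97.4 followed, and these 5 do not differ beyond their spread. Timm8a1, Mtx3, Tomm20l, Grpel2, Timm22 and Timm17b were low, between 3.98 and 6.77 CPM per kilobase. In sST2-KO mice the order began with Timm23 (65.8), Tomm6 (57.1) and Pmpcb (47.3). These levels depend on the annotated length of each transcript.

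Ratios between members of the same library do not depend on the scaling of libraries, so 12 pairs of members were compared. Most are paralogs or partners, but Tomm34, the member called higher, is neither to Tomm20. In 5 of the 12 pairs the log2 ratio did not overlap between the groups. The share among other gene pairs of the table was not computed, so no conclusion is drawn from this count. For groups of 3, the smallest two-sided p of the exact permutation test is 0.1, and these 5 pairs reached it (adjusted p = 0.24 over the 12 pairs). Grpel1 exceeded Grpel2 by a log2 ratio of 2.90, 3.01 and 3.60 in WT and by 2.25, 2.90 and 2.31 in sST2-KO, a mean change of -0.68 (exact permutation p = 0.1, n = 3). The highest sST2-KO value and the lowest WT value of this pair are equal at 2 decimals. The ratio of Pmpca to Pmpcb was -0.28, -0.46 and -0.62 in WT and -0.040, -0.11 and 0.50 in sST2-KO, a change of 0.57. The mean ratio of Mtx1 to Mtx2 was -0.97 in WT and -0.45 in sST2-KO, that of Tomm20 to Tomm70a -0.0088 and 0.48, and the ratio of Tomm20 to Tomm34 was 1.90, 2.43 and 2.27 in WT and 1.26, 1.58 and 1.07 in sST2-KO. None of these shifts passed the adjusted test. The partners Timm9 and Timm10 kept overlapping ratios, with a change of -0.32 (exact permutation p = 0.5, n = 3), as did Tomm40 and Tomm40l (0.14) and Timm8a1 and Timm8b (0.027).

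**Figure D4:**
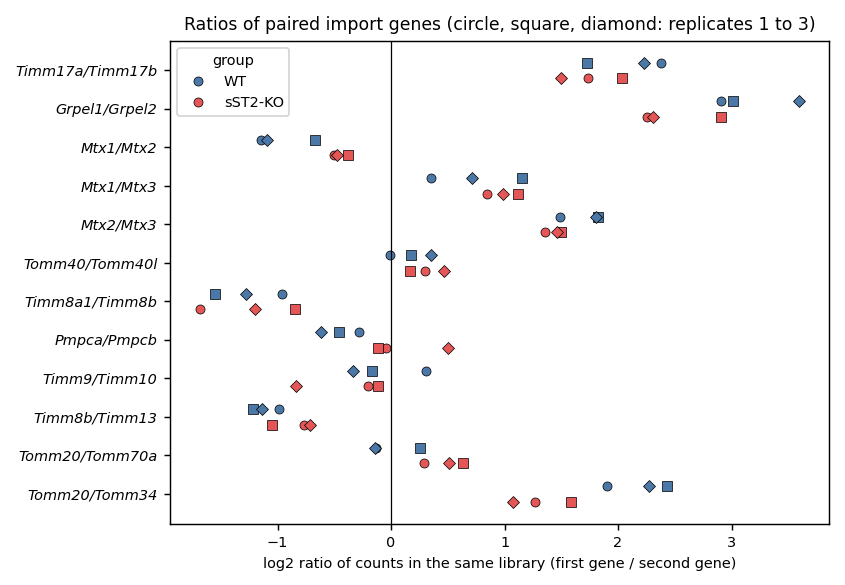
Log2 ratio of the counts of 2 import genes in the same library, for 12 pairs (rows) in WT (blue) and sST2-KO (red) mice, with circle, square and diamond for replicates 1, 2 and 3. The groups do not overlap for Grpel1/Grpel2, Mtx1/Mtx2, Pmpca/Pmpcb, Tomm20/Tomm70a and Tomm20/Tomm34, and overlap for the other 7.

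Other genes that act in import, in the folding of imported proteins or in their processing were taken from a list of 18 genes. Of these, 12 (66.7%) were lower at an adjusted p under 0.05 by edgeR, against 9.10% of all genes tested. By edgeR 0 were higher, against 10.5% of all genes tested, with 0 higher by DESeq2 as well and 0 higher at an unadjusted p under 0.05. Their median log2 fold change was -1.13. Hspa9, the HSP70 of the matrix that Timm44 and Grpel1 serve, had 838.7, 933.3 and 1122 CPM in WT and 381.1, 508.4 and 301.8 CPM in sST2-KO (log2 fold change -1.28, standard error 0.28, adjusted p = 0.0232). Dnajc15, a J protein related to Dnajc19, fell by 1.47 on the log2 scale (adjusted p = 0.0186), whereas Dnajc19 was not called. The largest fall was that of Immp2l, a subunit of the inner membrane peptidase, at -2.11 on the log2 scale (adjusted p = 0.0195), while its partner Immp1l had -0.64 without a call (adjusted p = 0.0606). Mtch2 (-1.47), Romo1 (-1.52), Aifm1 (-1.43), which supports Chchd4, the chaperonin genes Hspd1 (-1.19) and Hspe1 (-1.14), the intermediate peptidase Mipep (-1.19), Dnajc11 (-1.13), the insertase Oxa1l (-1.10) and Mtch1 (-0.94) were also called. Pitrm1, Gfer, Xpnpep3, Agk and Cox18 were not called, with log2 fold changes from -0.53 to 0.010. Without WT replicate 2, 2 of the 18 were called, and without WT replicate 3, 0 were called by edgeR, with 13 lower at an unadjusted p under 0.05. Of all genes, 3.25% and 0.146% were called lower in these fits, respectively.

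The import genes were set beside other mitochondrial lists, as a description. Respiratory chain subunits encoded in the nucleus had a median log2 fold change of -1.74, with 72 of 82 called lower, mitochondrial ribosomal proteins -0.81, with 41 of 77, and SLC25 carriers -0.68, with 14 of 41. Of all genes tested, 9.10% were called lower. Summed import CPM fell from 3005 ± 670.5 to 1506 ± 133.9 (SD, n = 3 each). It was 7.10%, 6.93% and 6.00% of the summed respiratory chain CPM in WT and 9.92%, 10.3% and 14.4% in sST2-KO, without overlap and highest in sST2-KO replicate 3. Against the sum of mitochondrial ribosomal proteins it was 63.4%, 64.9% and 66.1% in WT and 56.0%, 61.0% and 63.1% in sST2-KO, lower without overlap by a narrow gap. Against the sum of the 11 general adipocyte markers it was 8.20%, 9.89% and 10.7% in WT and 8.50%, 9.79% and 14.7% in sST2-KO, where the groups overlapped.

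**Figure D5:**
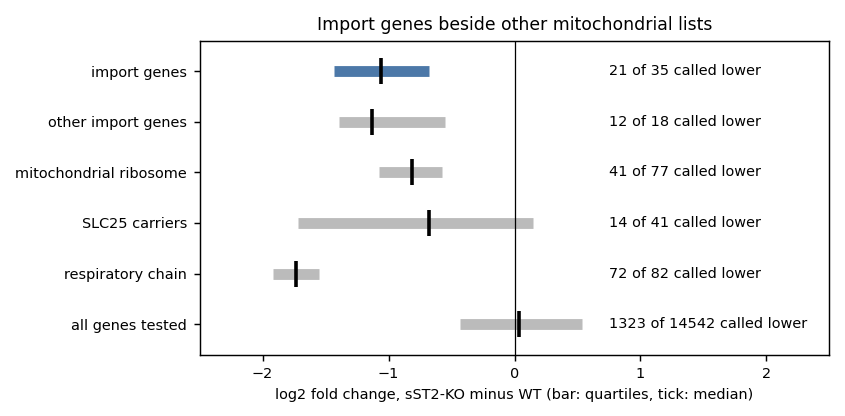
Median (tick) and quartiles (bar) of the log2 fold change, sST2-KO minus WT, for the import genes, the other import genes and further mitochondrial lists, beside all genes tested, with the number called lower at an adjusted p under 0.05. The median of the import genes, -1.06, lies between those of the mitochondrial ribosome, -0.81, and the respiratory chain, -1.74.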

How the data were processed

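The authors deposited 1 table of raw counts per gene for the 6 BAT libraries. Per the study's methods and the submitters' processing notes, poly-T selected RNA was sequenced as paired 150-base reads, checked with FastQC 0.12.1, aligned to mm39 with HISAT2 2.2.1 and counted with htseq-count; whether strand was used is not given in the sources used here. Such counts sum all transcripts of a gene, and reads of genes on opposite strands may be mixed.

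Genes were kept by filterByExpr and tested with edgeR 4.0.16 (R 4.3.3; TMM scaling, quasi-likelihood test, Benjamini-Hochberg adjustment over the 14542 genes kept). Calls needed an adjusted p below 0.05. Counts past 2-fold also needed a fitted fall of more than 2-fold, which was not itself tested. Library totals ran from 8159442 to 12874809. Within-library ratios used counts plus 0.5 and an exact permutation test. Alternatives were DESeq2 1.42.0, other scaling and filters, robust estimation, a replicate block and leaving out each library. No column of per-sample values was left unused (0). Exon overlap and transcript lengths came from the GENCODE annotation of GRCm39; promoters came from RefSeq on GRCm38.p6. The study counts 3 mice a group; the labels number the libraries without naming the mouse of each, and p-values measure the spread between libraries.

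The members and lists were chosen with earlier results of these data known. All members are accounted for; full statistics went to the 10 most reduced members called past 2-fold, members called higher, the least changed member of each complex, members of the ratio pairs and the 3 with the highest level per kilobase. Further members were named after their values were seen.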

Additional observations from a re-analysis of the deposited data

How the results depend on the processing

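The 21 lower calls became 24 with DESeq2 (all 21 shared), 22 with RLE factors, 17 with total counts, 20 with at least 10 counts in every library, and 21 with no filter and with robust estimation. The share of all genes called lower was 10.9% with DESeq2, 9.40% with RLE factors and 6.13% with total counts. It was 9.52% with at least 10 counts in every library, 5.36% with no filter and 9.14% with robust estimation. Leaving out 1 library gave 0 to 23 lower calls and 0 to 19 past 2-fold: 0 and 0 without WT replicate 3, where 58 genes of the whole table were called, and 11 and 11 without WT replicate 2. Calls higher were 0 in all 6 of these fits, and other import genes called lower were 0 to 12. Of all genes, 0.146% to 8.04% were called lower in these fits. Scaling by total counts moved the median of all genes from 0.034 to 0.29 and that of the import genes to -0.78, left 11 genes past 2-fold and turned Dnajc19 to 0.060; relative to all genes the median was -1.08 against -1.09. With no filter, 0 genes were called higher (Tomm34, adjusted p = 0.0698 from edgeR). The cause of these changes was not tested. A replicate block in the model called 0 of all 14542 genes, and so left 0 import genes called lower, 0 past 2-fold, 0 higher and 0 other import genes lower, although 29 import genes were lower at an unadjusted p under 0.05 and the smallest adjusted p from edgeR was 0.0644. The labels do not say whether same-numbered libraries belong together. Deviations of same-numbered libraries from their group means correlated at -0.066, 0.22 and -0.32, which cannot decide this. The ratio of Timm8a1 to Timm8b was 0.027 and went from -0.17 to 0.25 over the libraries left out, with -0.12 without WT replicate 2 and -0.17 without sST2-KO replicate 2. Among the members that share under 10% of their exon length with another gene, a choice made after seeing the data, 14 of 24 (58.3%) were called lower, against 9.10% of all genes tested. Depth limits Timm8a2, at 0 to 4 counts and not tested, and Tomm20l, at 5 to 32 counts.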
